A study of Homo sapiens with 9 samples.

Results

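The Integrator subunits described here are 10 genes of the deposited table, taken by name from its 26485 genes: CPSF3L (the table's older symbol for INTS11), INTS9, INTS4, INTS1, INTS2, INTS7, INTS5, INTS6, INTS8 and INTS3. All 10 had reads in every library and passed the filter on low counts, with 508 counts (INTS9) to 10679 counts (INTS1) per library. Poly(A)-selected RNA was sequenced from HEK293, a line derived from human embryonic kidney and grown in DMEM with 10% fetal bovine serum. The 3 groups, of 3 libraries each, were addback cells (UBE3D knockout cells into which UBE3D was put back, with the promoter not given), KO cells (UBE3D knocked out with CRISPR/Cas9) and wild-type cells (WT). The labels mark every sample as pooled, and do not state whether the KO line was 1 clone or whether libraries came from separate cultures, so p-values measure the spread between libraries. The treatment text of the WT libraries also names the knockout, and groups follow the genotype label.

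Integrator is a large nuclear complex that binds RNA polymerase II soon after initiation. It cuts the 3′ ends of the small nuclear RNAs (snRNAs) of the spliceosome, and it ends transcription at many protein-coding genes by cutting the nascent RNA and by bringing protein phosphatase 2A (PP2A) to the polymerase. Its endonuclease, INTS11, is a paralog of CPSF3 (CPSF73), the enzyme that cuts messenger RNA precursors at the poly(A) site and that the title of the series concerns; UBE3D is an E3 ubiquitin ligase.

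For 3 of the subunits the authors' deposited tables also hold a region directly downstream of the gene, in which reads beyond the annotated 3′ end were counted. The last 30 bases of the annotated transcript at that end are shown for these genes because the regions start there, and CPSF3L is added as the endonuclease. They are sense-strand sequences, 5′ to 3′, of GENCODE v29 transcripts on hg38, with the poly(A) signal AATAAA in capitals.
INTS1, chr7:1470277-1470306, minus strand: ctggttttgaatgaaacgacctgaactgtc
INTS7, chr1:211940399-211940428, minus strand: tttaAATAAAtatctgtttctttgcttgtg
INTS4, chr11:77878720-77878749, minus strand: ctgtccacAATAAAgttgagaaaacaccaa
CPSF3L, chr1:1311585-1311614, minus strand: aagctgaacaaaagactacttggtactctc
The signal began 26 bases before the end in INTS7 and 22 bases before it in INTS4, while the INTS1 and CPSF3L windows held neither AATAAA nor its common variant ATTAAA. Searched on the sense strand, AATAAA stood in 55% of 9458 coding-gene ends of the table that match a GENCODE end, and 67.4% held either hexamer. Of the other subunits with such an end, INTS3 and INTS5 held AATAAA, and INTS2 and INTS6 held neither.

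The targeted gene was not silent in the KO libraries. UBE3D had 3348, 3293 and 2745 scaled CPM in addback libraries 1 to 3, 13.2, 15.8 and 14.4 in KO and 19.5, 21.4 and 26.6 in WT. Scaled CPM are read counts relative to library size, with sizes corrected over 7720 genes little touched by the background described next. The groups did not overlap, and the log2 fold of KO against WT was -0.62 ± 0.13 (standard error, SE; edgeR quasi-likelihood test, Benjamini-Hochberg adjusted p = 0.00406). It was -0.28 with factors over all genes (edgeR adjusted p = 0.142, not called) and -0.34 with 2 times the background subtracted, which is estimated at 5.36% to 20.1% of its WT counts. On the log2 scale the addback exceeded KO by 7.76 ± 0.14 (edgeR adjusted p = 4.54e-08) and WT by 7.13 ± 0.14 (adjusted p = 7e-08).

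Library totals ran from 23088295 to 37508780 counts. Over 559 genes restricted to unrelated tissues, such as odorant receptors, the share with any count was 95.9% to 96.6% in the addback and WT libraries and 14.0% to 17.4% in the KO libraries. At the density found in these genes, background over coding sequence would make up 2.87%, 11.9% and 11.9% of the counts of addback libraries 1 to 3, 0% in KO, and 3.08%, 8.41% and 14.9% in WT libraries 1 to 3. All 7 HEK293 marker genes reached 1 CPM in every library. Of 12 markers of blood, liver, muscle, pancreas and skin, 10 did so in addback, 3 in KO and 10 in WT. Their summed level was 58.9 to 114 CPM in addback, 30.4 to 37.4 in KO and 46.9 to 140.0 in WT. Most of the KO sum was HBB, which alone stood at 24.8 to 37.4 CPM in addback, 25.9 to 32.1 in KO and 25.1 to 31.1 in WT. Insulin (INS) was at 0 in every KO library. A difference in poly(A) RNA between groups of cells can come from fewer cells that make a transcript or from less of it per cell, which bulk libraries do not tell apart.

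This background reached the subunits unequally. In KO its estimate was 0 for all 10. In the addback and WT libraries it was 1.75% to 11.9% of the counts of CPSF3L, INTS1 and INTS3, but 7.64% to 43.7% of those of INTS5 and 8.28% to 35.5% of those of INTS9. The highest share of a subunit was in WT library 3 for CPSF3L, INTS9, INTS2, INTS5 and INTS3, and in addback library 2 or 3 for the others. Values are on the counts as deposited unless background is said to be subtracted. Where groups are said to overlap or not, this describes that gene alone, and the share over all genes is not given. In KO against WT 52.5% of all genes tested were called lower.

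**Figure D1:**
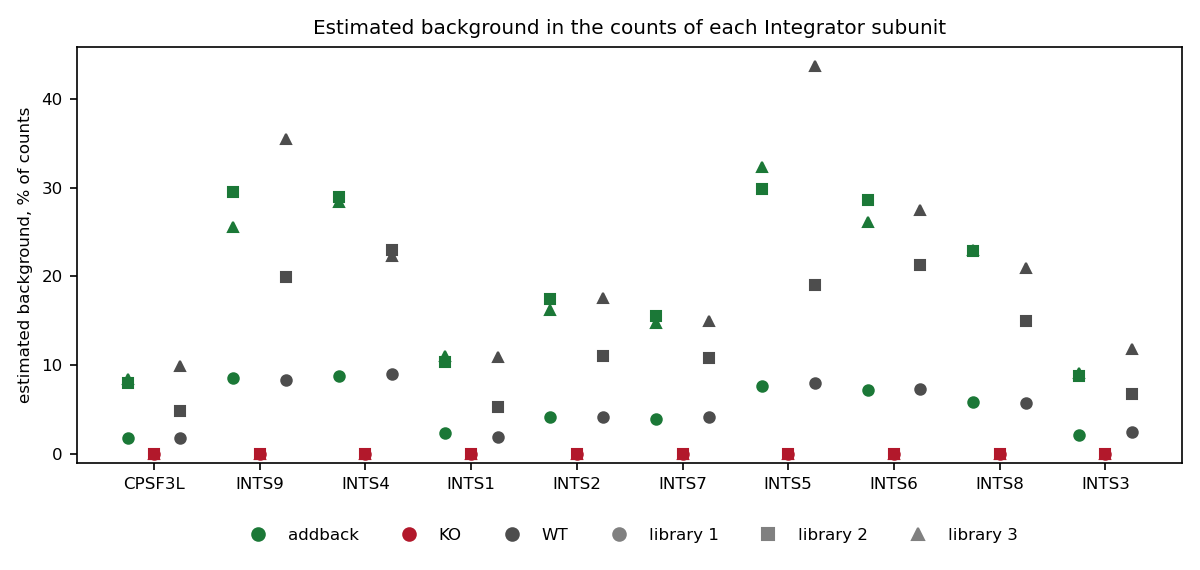
Estimated background as a percentage of the counts of each subunit, with 1 point per library, coloured by group and shaped by library number. KO points lie at 0 for every subunit, and the addback and WT points reach 43.7% in INTS5.

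INTS1 RNA was lower than in WT in both the addback and the KO cells. INTS1 (chr7:1470277-1504382, minus strand) encodes the largest subunit, a scaffold of the complex. It stood at 224, 219 and 207 scaled CPM in addback libraries 1 to 3, 205, 216 and 207 in KO, and 297, 308 and 268 in WT. Every addback and every KO library lay below every WT library, and addback and KO libraries overlapped. The log2 fold was -0.48 ± 0.05 in KO against WT (edgeR adjusted p = 0.000618) and -0.43 ± 0.05 in addback against WT (adjusted p = 0.00154). In addback against KO it was 0.05 ± 0.05 (adjusted p = 0.445), so no difference was detected between addback and KO. With background subtracted these folds were -0.47, -0.44 and 0.03, with the same calls. With factors computed over all genes, which shift the median fold of the low-background genes in KO against WT to 0.32 from -0.02, neither INTS1 call remained (-0.14 ± 0.13, adjusted p = 0.372, in KO against WT, and -0.39 ± 0.13, adjusted p = 0.215, in addback against WT).

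Other genes of chromosome 7 were lower as well. Among the chromosome's 355 other low-background genes the median log2 fold was -0.22 in KO against WT, with 13 called higher and 213 lower. In addback against WT the chromosome's median was also -0.22, with 13 called higher and 155 lower, while in addback against KO it was 0.01. Over all 7720 low-background genes the medians were -0.02, -0.01 and 0.00 in the same 3 comparisons. Within 5 Mb of INTS1 the median of 32 genes was -0.20 in KO against WT and -0.23 in addback against WT. INTS1 lay 0.26 below the chromosome's median in KO against WT, where 54 of the 355 genes had lower folds, and 0.20 below it in addback against WT, where 39 did. The part of this chromosome-wide difference in the INTS1 result was not tested. The chromosomes of the other 9 subunits had medians between -0.04 and 0.03 in KO against WT.

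**Figure D2:**
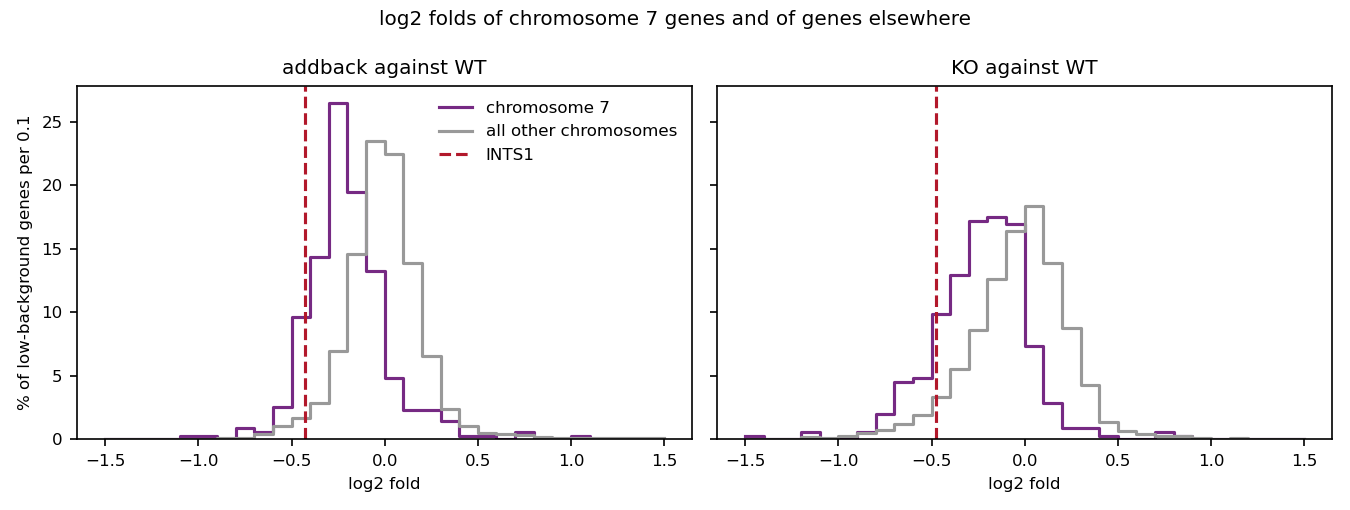
Distribution of log2 folds of low-background genes on chromosome 7 (purple) and on all other chromosomes (grey), as a percentage of genes per bin of 0.1, for addback against WT (left) and KO against WT (right). The chromosome 7 curve is centred near -0.22 in both panels, and the dashed line marks INTS1 at -0.43 and -0.48.

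The region downstream of INTS1 was higher in KO than in WT and lower in addback than in KO. In the authors' deposited table this region (chr7:1459473-1470277, hg38, 10805 bases) had a log2 fold of 0.44 ± 0.09 (SE) in KO against WT (the authors' adjusted p = 1.66e-05), while the authors' deposited gene table gave INTS1 itself -0.20 ± 0.10 (adjusted p = 0.0584). In addback against KO the authors' deposited tables gave -0.71 ± 0.10 for the region (adjusted p = 1.46e-12) and -0.19 ± 0.10 for the gene (adjusted p = 0.0726). Both region tables hold many calls: 49.8% of regions were called in KO against WT (24.8% higher) and 34.1% in addback against KO (15.5% lower). The region spans the gap between INTS1 and MICALL2, and it overlaps the first 30 bases of MICALL2, a long noncoding RNA on the INTS1 strand (AC102953.2) and one on the opposite strand (AC102953.1), and reads of these genes cannot be told apart from INTS1 readthrough here. No values per library are in these tables, and the folds of the KO against WT table are unshrunken while those of addback against KO are shrunken, so their sizes are not on 1 scale. For INTS1 itself, the authors' gene folds over their standard errors do not give the deposited p-values either. Gene folds are thus not on the scale of the KO against WT region folds.

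Regions exist for INTS7 and INTS4 too. In the authors' deposited table the INTS7 region (chr1:211933000-211940399, 7400 bases) had 0.05 ± 0.22 in KO against WT (adjusted p = 0.911) and -0.08 ± 0.20 in addback against KO (adjusted p = 0.754). The INTS4 region (chr11:77872352-77878720) averaged 0.295 reads in the authors' deposited table and lies inside AAMDC on the opposite strand, so its fold is not given. Beyond the 10 subunits, the region after ASUN (INTS13) had 1.05 ± 0.14 in KO against WT (adjusted p = 1.47e-13) and -0.60 ± 0.15 in addback against KO (adjusted p = 4.08e-05) in the authors' deposited tables. The region after INIP, of the SOSS complex, had -0.40 ± 0.08 in KO against WT (adjusted p = 7.04e-06) and -0.0085 ± 0.09 in addback against KO (adjusted p = 0.957) in the authors' deposited tables. Of its 6200 bases, 2586 overlap INIP itself as annotated in GENCODE v29, so reads of the gene cannot be told apart from readthrough there. It lies on chromosome 9, whose low-background genes had a median log2 fold of -0.45 in KO against WT. The part of either in the region's fold was not tested.

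Over the 10 subunits, 4 were called lower in KO than in WT (INTS1, CPSF3L, INTS6 and INTS8) and 0 higher. Among all 21994 genes tested this comparison had 62% called, 52.5% lower and 9.44% higher, so the subunits' share lies below that of all genes. Among the 7720 low-background genes of the same fit, 2029 were called lower and 1806 higher. The subunits' median log2 fold was -0.26, beside -0.47 over all genes tested and -0.02 over the low-background genes. The side on which the subunits lie thus depends on the reference. With background subtracted, 2 subunits were called lower (INTS1 and CPSF3L) beside 35.3% of genes called and 25.1% called lower, and the medians were -0.09 for the subunits and -0.16 for all genes. The balance turned with factors over all genes, which called 3 subunits higher (INTS3, INTS2 and INTS7) and 0 lower, beside 61.6% of genes called and 24.2% called higher. Upper quartile factors called INTS1 lower and INTS3 higher.

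**Figure D3:**
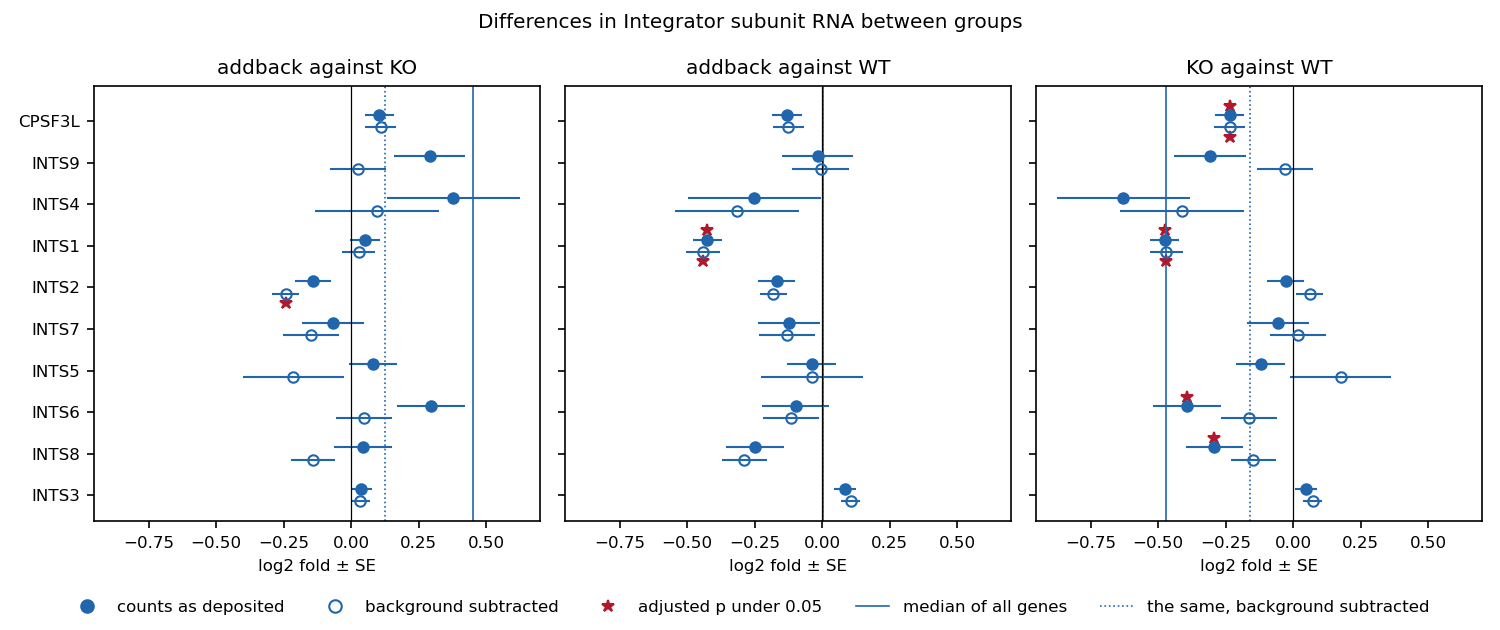
log2 folds with standard errors of the 10 subunits in addback against KO, addback against WT and KO against WT, from the counts as deposited (filled) and with background subtracted (open); stars mark adjusted p under 0.05. Blue lines give the median of all genes tested, and in KO against WT INTS1 and CPSF3L carry a star in both forms.

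The cleavage module comprises CPSF3L, its catalytically inactive partner INTS9 and INTS4, which binds that pair. CPSF3L (chr1:1311585-1324687, minus strand) stood at 117, 109 and 105 scaled CPM in addback libraries 1 to 3, 105, 99.96 and 103 in KO, and 121, 127 and 113 in WT. All KO libraries lay below all WT libraries, and the addback libraries overlapped both groups. The log2 fold of KO against WT was -0.23 ± 0.05 (edgeR adjusted p = 0.00556), or 0.850 of the WT level, and -0.24 with background subtracted (adjusted p = 0.0153). Factors over all genes gave 0.10 ± 0.13 (adjusted p = 0.512), the fold was 0.02 ± 0.10 in the authors' deposited gene table (the authors' adjusted p = 0.896), and upper quartile factors gave -0.11 (adjusted p = 0.236). In addback against KO the fold was 0.10 ± 0.05 (adjusted p = 0.13), and in addback against WT -0.13 ± 0.05 (adjusted p = 0.226). Reads of the 93 exonic bases that CPSF3L shares with PUSL1 on the opposite strand cannot be told apart, since the sources used here do not say whether counting used strand; the same holds for 108 bases of INTS7 (DTL), 294 of INTS6 (SERPINE3) and 269 of INTS8 (CCNE2).

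INTS9 had 19.2, 23.9 and 27.7 scaled CPM in addback libraries 1 to 3, 18.8, 19.7 and 19.4 in KO, and 21.3, 25.01 and 25.4 in WT. KO libraries lay below WT libraries, by -0.31 ± 0.13 on the log2 scale, which missed the threshold (edgeR adjusted p = 0.0721). With background subtracted, which takes 8.28%, 19.95% and 35.5% from the WT libraries, INTS9 averaged 19.97 ± 2.6 scaled CPM (SD, n = 3) in addback, 19.6 ± 0.44 in KO and 20.04 ± 1.63 in WT, with a fold of -0.03 ± 0.10 in KO against WT. The groups then overlapped.

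INTS4 (chr11:77878720-77994671, minus strand) had 27.6, 35.6 and 36.5 scaled CPM in addback libraries 1 to 3, 26.1, 25.8 and 24.9 in KO, and 28.6, 31.6 and 58.8 in WT. One library, WT 3, stood far above the others, and the estimated background was 22.4% of its INTS4 counts. All addback and all WT libraries lay above all KO libraries. The fold of KO against WT was -0.63 ± 0.25 (edgeR adjusted p = 0.0508), and -0.23 without WT library 3. With background subtracted the groups overlapped, and the folds were -0.41 in KO against WT and 0.10 in addback against KO, where the counts as deposited gave 0.38. INTS4 has pseudogene copies, whose reads cannot be separated from it in counts per gene.

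The scaffold also holds INTS2 and INTS7. INTS2 (chr17:61865367-61928016, minus strand) stood at 72.1, 73.9 and 79.8 scaled CPM in addback libraries 1 to 3, 81.6, 81.8 and 85.6 in KO, and 78.4, 82.2 and 93.5 in WT. All addback libraries lay below all KO libraries, while KO and WT overlapped. The log2 fold of addback against KO was -0.14 ± 0.07 (edgeR adjusted p = 0.102), and -0.24 ± 0.05 with background subtracted (adjusted p = 0.0147). In addback against WT it was -0.17 ± 0.07 (adjusted p = 0.204), and -0.17 ± 0.04 with the replicate number as a block (adjusted p = 0.0359); addback and WT libraries of 1 number deviated together. In KO against WT it was -0.03 ± 0.07 (adjusted p = 0.735).

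INTS7 had 61.2, 65.6 and 69.6 scaled CPM in addback libraries 1 to 3, 67.9, 70.8 and 67.0 in KO, and 61.1, 66.5 and 86.8 in WT. WT library 3 was again the highest of all 9, and the groups overlapped. No comparison was called (KO against WT -0.06 ± 0.11, edgeR adjusted p = 0.681). Without library 2 and 3 of addback and WT, which carry most background, 1 addback and 1 WT library remain against 3 KO libraries, and the KO libraries alone supply the spread. The INTS7 SD in scaled CPM (n = 3) was 1.99 in KO, 4.19 in addback and 13.6 in WT. The KO spread is thus too small for the other groups, and no call is given. The INTS7 fold in these libraries was 0.16 in KO against WT and -0.16 in addback against KO.

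INTS6 and INTS8 contact PP2A, and INTS5 is a core subunit beside them. INTS6 had 31.5, 33.8 and 37.2 scaled CPM in addback libraries 1 to 3, 28.2, 27.3 and 28.0 in KO, and 32.8, 32.2 and 44.9 in WT. All KO libraries lay below all others, but with background subtracted they overlapped both other groups. The fold of KO against WT was -0.39 ± 0.13 (edgeR adjusted p = 0.0229), and -0.16 ± 0.10 with background subtracted (adjusted p = 0.253), a background that held 7.36%, 21.3% and 27.5% of its WT counts. The fold of addback against KO was 0.30 ± 0.13 (adjusted p = 0.0714), and 0.05 ± 0.10 with background subtracted.

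INTS8 had 47.8, 52.1 and 52.2 scaled CPM in addback libraries 1 to 3, 48.3, 50.6 and 48.9 in KO, and 52.4, 56.2 and 72.5 in WT. All addback and all KO libraries lay below all WT libraries, and WT library 3 was the highest. The fold of KO against WT was -0.29 ± 0.11 (edgeR adjusted p = 0.0404), and -0.15 ± 0.08 with background subtracted (adjusted p = 0.201). Leaving out any 1 of the KO libraries ended the INTS6 and INTS8 calls (adjusted p of 0.0552 to 0.0678 and of 0.0759 to 0.103), as leaving out addback library 2 or 3 did for INTS8 (adjusted p = 0.0560 and 0.0534). Without WT library 3 the folds were -0.22 for INTS6 and -0.14 for INTS8, and INTS8 was no longer called (adjusted p = 0.0576).

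INTS5 had 32.4, 35.4 and 32.8 scaled CPM in addback libraries 1 to 3, 30.3, 31.8 and 33.0 in KO, and 33.2, 39.2 and 30.9 in WT. Its groups overlapped and no comparison was called (KO against WT -0.12 ± 0.09, edgeR adjusted p = 0.273). The sign in KO against WT turned to 0.18 ± 0.19 with background subtracted.

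INTS3, which also forms the SOSS complex on single-stranded DNA with NABP1 or NABP2 and INIP, showed small differences. It stood at 127, 133 and 129 scaled CPM in addback libraries 1 to 3, 128, 121 and 130.3 in KO, and 118, 122 and 126 in WT. Addback libraries lay above WT libraries by 0.09 ± 0.04 on the log2 scale (edgeR adjusted p = 0.31), and the fold of KO against WT was 0.05 ± 0.04 (adjusted p = 0.318). Factors over all genes called INTS3 higher in KO than in WT (0.39 ± 0.10, adjusted p = 0.00579), as they did INTS2 (0.32) and INTS7 (0.29), and the authors' deposited gene table gave INTS3 0.29 ± 0.06 (the authors' adjusted p = 4.65e-06).

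**Figure D4:**
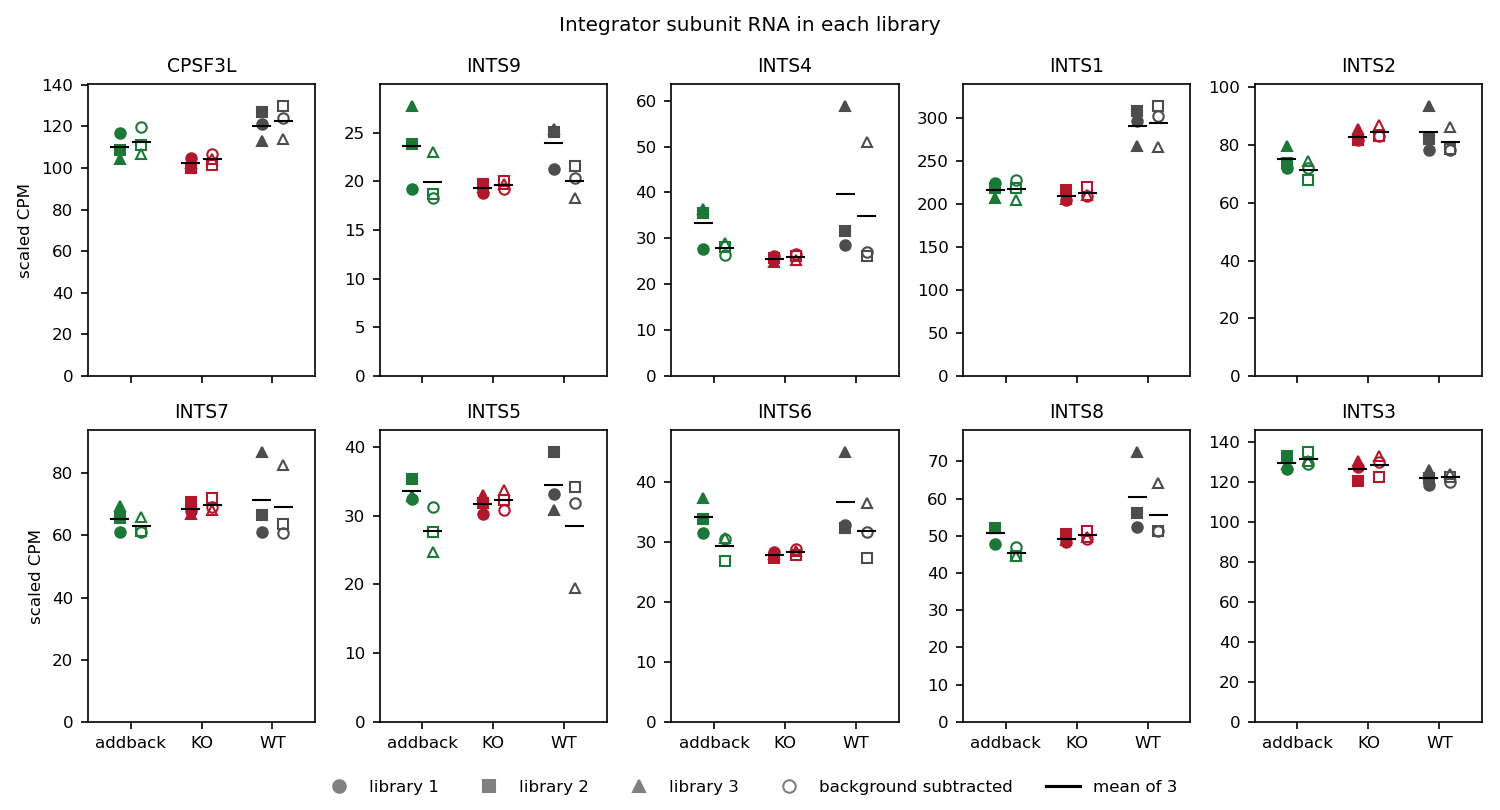
Scaled CPM of each subunit in every library, grouped as addback, KO and WT, with 1 marker shape per library number, filled for counts as deposited and open with background subtracted; bars are means of 3. INTS1 is near 217 in addback and 209 in KO against 291 in WT, and WT library 3 is the highest point of INTS4, INTS2, INTS7, INTS6 and INTS8.

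Of the 10 subunits, edgeR called 0 in addback against KO, beside 56.8% of all genes called, 49.2% higher and 7.64% lower. Factors over all genes called 4 lower (INTS2, INTS7, INTS3 and INTS8), beside 59.8% called and 21.8% called lower. By unadjusted p under 0.05, 1 subunit passed (INTS6), and DESeq2 called 2, INTS2 and INTS6. With background subtracted INTS2 was called lower, beside 24% of genes called and 5.36% called lower. Against WT, 1 of the 10 (INTS1) was called lower in the addback, beside 9.26% of all genes called, 4.37% higher and 4.88% lower; with background subtracted it was again 1, beside 13.8% called and 6.91% called lower. With the replicate block 2 were called (INTS1 and INTS2), beside 12.3% of genes. The subunits' median log2 fold was 0.07 in addback against KO, beside 0.45 over all genes, and -0.13 in addback against WT, beside 0.00. Over the 7720 low-background genes these medians were 0.00 and -0.01. Of those genes 1408 were called higher and 1538 lower in addback against KO. The comparisons share libraries, so their values are not independent of each other.

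Levels per length ranked the subunits. In KO, which had no estimated background, scaled CPM per kilobase of exon (mean ± SD, n = 3) was 38.9 ± 0.89 for CPSF3L, followed by INTS1 at 30.03 ± 0.86 and INTS3 at 28.1 ± 1.12. INTS7 (14.7 to 15.5 in the 3 libraries), INTS8 (13.8 ± 0.33) and INTS2 (13.5 ± 0.36) came next, and the INTS8 and INTS2 libraries overlapped. Below them stood INTS5 (9.65 ± 0.42), INTS4 (8.12 ± 0.20), INTS9 (6.90 ± 0.17) and INTS6 (3.00 ± 0.05). The exons of INTS6 cover 9289 bases, of which 2802 are coding, and its last place rests on that exon length. The endonuclease had more RNA per length than its partner INTS9 in every library. INTS3's deposited length of 8964 bases counts a copy on an alternative contig, and 4482 bases were used. In WT INTS1 reached 41.8 ± 2.99, near CPSF3L at 45.8 ± 2.69.

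**Figure D5:**
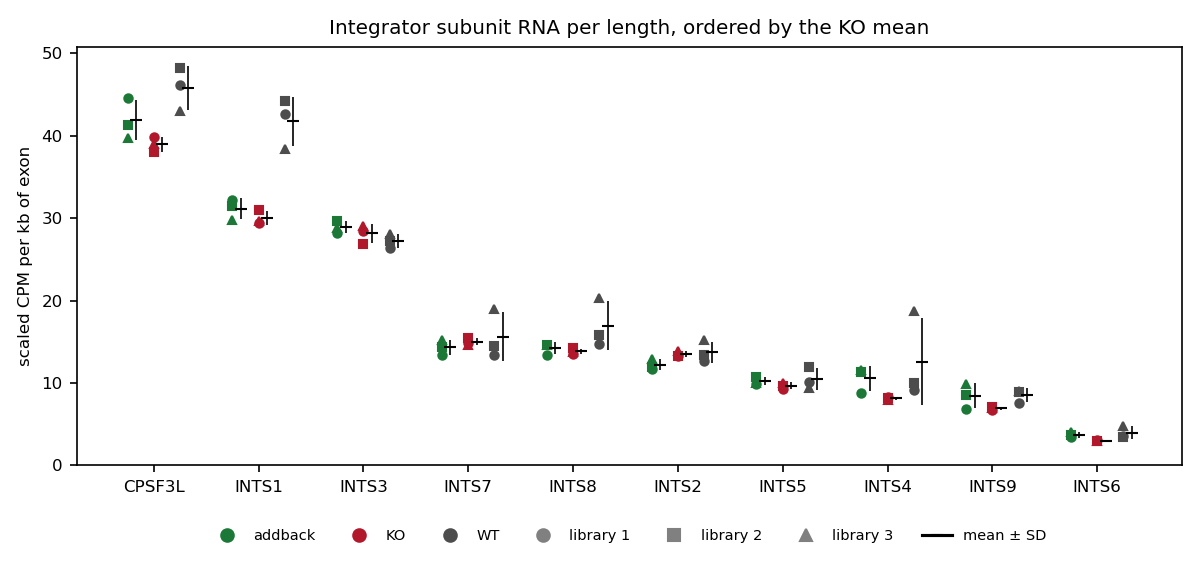
Scaled CPM per kilobase of exon of each subunit, from the counts as deposited, for addback, KO and WT libraries (points, with mean ± SD beside them), ordered by the KO mean. CPSF3L, INTS1 and INTS3 stand at 26.4 or above in every library, and every other subunit is at 20.4 or below.

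Each subunit's share of the summed level per length does not depend on how libraries are scaled. INTS1 made up 18.7%, 17.7% and 16.8% of the sum in addback libraries 1 to 3, 17.7%, 18.6% and 17.6% in KO, and 22.9%, 22.4% and 18.7% in WT. Its KO shares lay below all WT shares, and the highest addback share met the lowest WT share. INTS3 made up 16.5% ± 0.21 (SD, n = 3) in addback, 16.8% ± 0.63 in KO and 13.9% ± 0.28 in WT, without overlap of either group with WT. INTS2 made up 6.96% ± 0.33 in addback, 8.06% ± 0.18 in KO and 6.98% ± 0.34 in WT, with KO above every other library. Shares sum to 100% in each library, so a lower share of one subunit raises the others.

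The counts for partner genes stand beside 62% of all genes called when KO is set against WT, 56.8% when addback is set against KO and 9.26% when it is set against WT. With factors over all genes, 61.6%, 59.8% and 2.57% were called in the same 3 comparisons. Other Integrator subunits and partners, 11 genes, had 1 called higher and 3 lower in KO against WT, 2 higher and 1 lower in addback against KO, and 0 higher and 2 lower in addback against WT. With factors over all genes, KO against WT had 4 higher and 1 lower, addback against KO 1 higher and 6 lower, and addback against WT 0. DDX26B (INTS6L), with an estimated background of 11.6%, had -0.79 ± 0.14 in KO against WT (edgeR adjusted p = 0.00196). It remained called lower there with background subtracted (-0.64, adjusted p = 0.0063) and with factors over all genes (-0.44, adjusted p = 0.0082). In addback against KO DDX26B had 0.61 ± 0.14 (adjusted p = 0.00573), and 0.45 with background subtracted (adjusted p = 0.0318). VWA9 (INTS14) rose by 0.18 ± 0.03 in KO against WT (edgeR adjusted p = 0.00171) and was lower in addback than in KO by 0.12 on the log2 scale (-0.12 ± 0.03, adjusted p = 0.0106; not called with background subtracted, -0.086). BRAT1, a partner of the cleavage pair encoded on chromosome 7, had -0.34 ± 0.07 in addback against WT (adjusted p = 0.0189) and -0.30 ± 0.07 in KO against WT (adjusted p = 0.00644), where it was not called once background was subtracted. INIP, of the SOSS complex, had -0.51 ± 0.12 in addback against WT (adjusted p = 0.03) and -0.37 ± 0.12 in KO against WT (adjusted p = 0.025). WDR73, another partner of the cleavage pair, rose by 0.22 ± 0.05 in addback against KO (adjusted p = 0.00945). With factors over all genes BRAT1, INIP and WDR73 were not called, and the folds turned to 0.04 for BRAT1 in KO against WT and to -0.09 for WDR73. The medians of the list were -0.03 in addback against KO, -0.06 in addback against WT and -0.07 in KO against WT.

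Of the 4 core genes of PP2A, 1 was called higher and 1 lower in KO against WT, 0 higher and 2 lower in addback against KO, and 1 higher and 2 lower in addback against WT. Factors over all genes gave 2 higher and 0 lower, 0 higher and 3 lower, and 0 in these comparisons. PPP2CA, a catalytic subunit, averaged 219 ± 9.49 scaled CPM (SD, n = 3) in addback, 250.1 ± 8.32 in KO and 195 ± 4.65 in WT. It was higher in KO than in WT (0.36 ± 0.04, edgeR adjusted p = 0.000575) and lower in addback than in KO (-0.19 ± 0.04, adjusted p = 0.00481; -0.11 with background subtracted). The scaffold gene PPP2R1B was lower in KO than in WT (-0.37 ± 0.05, adjusted p = 0.00116) and in addback than in WT (-0.27 ± 0.05, adjusted p = 0.0116), and with factors over all genes in neither (-0.03 and -0.24).

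NELF and DSIF hold the polymerase near the promoter, where Integrator acts, and 5 of their 6 genes passed the test between KO and WT, with 2 higher and 3 lower in KO. The DSIF subunits SUPT4H1 (0.49 ± 0.06, edgeR adjusted p = 0.000786) and SUPT5H (0.38 ± 0.05, adjusted p = 0.000737) rose in KO, and both were lower in addback than in KO (-0.25 ± 0.06, adjusted p = 0.0074, and -0.17, adjusted p = 0.0115). NELFE fell in KO against WT (-0.27 ± 0.04, adjusted p = 0.00112) and rose in addback against KO (0.29 ± 0.04, adjusted p = 0.00186). These were 0.06 and -0.01, not called, with factors over all genes. In addback against KO 1 gene was called higher and 3 lower, and in addback against WT 2 higher and 2 lower. Scaling over all genes, KO against WT had 2 higher and 0 lower, addback against KO 0 higher and 4 lower, and addback against WT 0.

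Factors of snRNA promoters and the little elongation complex, 13 genes, had 3 called higher and 5 lower in KO against WT, 4 higher and 0 lower in addback against KO, and 1 higher and 1 lower in addback against WT. With background subtracted these were 3 and 2, 1 and 0, and 2 and 2, and with factors over all genes 4 and 1, 0 and 4, and 0 and 1. SNAPC3, a subunit of the complex that binds snRNA promoters, averaged 33.1 scaled CPM in addback, 24.4 in KO and 48.6 in WT. SNAPC3 differed by -0.99 ± 0.07 on the log2 scale in KO against WT (edgeR adjusted p = 6.91e-05), 0.44 ± 0.07 in addback against KO (adjusted p = 0.0022; 0.13 with factors over all genes, not called) and -0.55 ± 0.07 in addback against WT (adjusted p = 0.00116). EAF1, an ELL partner, rose in KO against WT (0.32 ± 0.04, adjusted p = 0.000975).

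For snRNA export and maturation, 13 of 14 genes could be tested, and 3 were called higher and 1 lower in KO against WT. NCBP1, of the nuclear cap-binding complex, averaged 78.4 scaled CPM in addback, 78.6 in KO and 119 in WT, with folds of -0.60 ± 0.06 in KO against WT (edgeR adjusted p = 0.000369) and in addback against WT (adjusted p = 0.000435). PHAX, the export adaptor of snRNAs, rose in KO against WT (0.25 ± 0.04, adjusted p = 0.00131) and fell in addback against KO (-0.18 ± 0.04, adjusted p = 0.00364). COIL, the Cajal body protein coilin, rose in KO against WT (0.19 ± 0.03, adjusted p = 0.00208). In addback against KO 2 genes of the list were called higher and 3 lower, and in addback against WT 1 higher and 2 lower. When scaled over all genes, KO against WT had 10 higher and 1 lower, addback against KO 0 higher and 11 lower, and addback against WT 0 higher and 1 lower. With these factors 4400 of the 7720 low-background genes were called higher in KO against WT and 4299 lower in addback against KO. The direction of these counts is thus not particular to the list.

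NCBP1, SNAPC3, SNAPC4, INIP and NELFB lie on chromosome 9. Its low-background genes had a median log2 fold of -0.45 in KO against WT (2 called higher and 281 lower of 304). In addback against WT the median was -0.42 (4 higher and 245 lower). Between addback and KO that median was 0.02. NELFB had -0.33 ± 0.07 in KO against WT (edgeR adjusted p = 0.00351) and -0.44 ± 0.07 in addback against WT (adjusted p = 0.00432). SNAPC4 had -0.34 ± 0.09 (adjusted p = 0.0101) and -0.08 ± 0.09 (adjusted p = 0.926). With background subtracted SNAPC4 was not called in KO against WT (-0.16), and with factors over all genes neither gene was. The part of the chromosome-wide difference in the values of these genes was not tested.

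The CPSF counterparts of the cleavage pair are CPSF3 and CPSF2. CPSF3 averaged 111 ± 1.70 scaled CPM (SD, n = 3) in addback, 119 ± 1.73 in KO and 108 ± 5.55 in WT. Its fold was 0.14 ± 0.04 in KO against WT (edgeR adjusted p = 0.0135) and -0.10 ± 0.04 in addback against KO (adjusted p = 0.0542). The sign in KO against WT was opposite to that of CPSF3L. With factors over all genes both signs were positive (0.48 for CPSF3). Both were also positive in the authors' deposited gene table (CPSF3 0.38 ± 0.06, CPSF3L 0.02 ± 0.10). In addback against KO the authors' deposited gene table gave CPSF3 -0.35 ± 0.06 (the authors' adjusted p = 6.96e-08). CPSF2, the counterpart of INTS9, had 0.10 ± 0.04 in KO against WT (adjusted p = 0.0417), and it was not called once background was subtracted. With factors over all genes both paralogs were called higher in KO against WT and lower in addback against KO, and neither in addback against WT.

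The snRNAs that Integrator cuts could not be assessed. All 20 polymerase II snRNA genes looked for are in the table, with 0 to 13 counts per library. In the fit of all 9 libraries 0 of them passed the filter on low counts. They lack poly(A) tails, and the libraries were poly(A)-selected.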

How the data were processed

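The authors deposited read counts per gene (26485 genes, 9 libraries), which were used as deposited. The authors also deposited log2 fold changes with standard errors, p-values and adjusted p-values for genes and for regions downstream of genes, a score per region (the test statistic), and base means, a signal averaged over libraries by the authors. Per the submitters' processing notes, cutadapt 1.8.1, STAR 2.5.2b, DESeq2 and hg38 were used, with no roles given; for the counting program, annotation and strand setting nothing is given in the sources used here. Addback columns carry the KO name with a suffix, and were taken as addback because the authors' deposited tables name that group as KO with UBE3D; 0 sample columns were left out. Start positions of regions were raised by 1 base to count from 1. In the authors' deposited KO against WT region table, log2 fold over standard error equals the normal statistic that the deposited p-value gives for all 2540 regions compared (tolerance 0.01), and in addback against KO for 3.76%.

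Of the symbols, 23900 matched GENCODE v29 directly and 696 through another symbol, and 19126 genes had a coding length. Background per kilobase of coding sequence was estimated in each library from 559 genes restricted to unrelated tissues. Genes whose estimated background was at most 10% of their mean CPM, with coding sequence at least 10% of exon length, form the 7720 low-background genes. Counts were tested with edgeR 4.0.16 (limma 3.58.1, R 4.3.3): TMM factors from low-background genes, genes filtered by filterByExpr, 1 robust quasi-likelihood fit of genotype over all 9 libraries, Benjamini-Hochberg adjustment over all genes tested, and a threshold of 0.05. Standard errors are the log2 fold over the square root of F. DESeq2 1.42.0 was an alternative. Tables and figures used Python 3.11.15, numpy 2.4.6, pandas 2.3.3 and matplotlib 3.10.9. The fits were tested on simulated data. The simulation gave all libraries the same spread and all groups the same background, so it does not show how the fits behave where these differ. An exact permutation test of 3 against 3 libraries cannot go below 0.1 (two-sided), so none is given.

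The members and the partner lists were chosen with earlier results of these data known. The text names all 10 members, UBE3D and CPSF3. Per partner list and comparison it names at most the 3 called genes with the smallest adjusted p among those with background up to 10%. DDX26B and SNAPC4, with background of 11.6% and 11.5%, and the regions after ASUN and INIP were added after their values were seen. Replicate numbers were checked for pairing by correlating deviations from group means, with a limit of 0.1. In addback and WT the correlations of same-numbered libraries were 0.89, 0.60 and 0.74 over all genes (0.57, 0.29 and 0.63 over low-background genes). Correlations between differently numbered libraries were not computed. Library 1 had the least estimated background in both groups, so pairing was not tested apart from background. Over all genes the correlations were -0.04, -0.05 and 0.00 in KO and WT and -0.04, -0.03 and 0.02 in addback and KO. Over low-background genes they were 0.05, 0.01 and 0.07 in KO and WT. In addback and KO they were 0.01, 0.09 and 0.19, the last above the limit. Between libraries of 1 group the chi-square per degree of freedom was 1.99 to 44.5, so no library was a copy of another. Alternatives changed the factors, the test, the filter, the background, the libraries used and the replicate block.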

Additional observations from a re-analysis of the deposited data

How the results depend on the processing

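The run that leaves 1 library in addback and in WT is set aside here. In every other alternative run except TMM factors over all genes, INTS1 was called lower in KO than in WT. CPSF3L was called lower in all except these and upper quartile factors. The 5% factor set, the subtraction combined with the block and the medians of neighbouring genes were chosen after seeing the data. In KO against WT 4 subunits were called. TMM over all genes called 3, all of them higher, while the DESeq2 Wald test and no filter called 5 each and the replicate block 6. The count was 2 with upper quartile factors (INTS1 lower, INTS3 higher), with background subtracted once or 2 times, with low-background genes alone (a set that holds 5 of the subunits), and with subtraction plus the replicate block. Leaving out 1 library gave 2 to 6 (2 without any 1 KO library). Calls over all genes numbered 13633, and 7093 with background subtracted, 4956 with 2 times the background subtracted, 3859 among low-background genes alone and 7071 with subtraction and block.

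Against KO, 0 subunits were called in addback, and 4 with TMM over all genes, 1 with upper quartile factors and 2 with the DESeq2 Wald test. The count was 1 with background subtracted, 2 with 2 times subtracted and 2 with the 5% factor set. Calls without addback and WT libraries 2 and 3 are not counted, since 1 library is left in addback and in WT. Leaving out 1 library gave 0 to 3 (1 without addback library 1, 3 without WT library 3). Calls over all genes numbered 12496, and 4820 with background subtracted, 3275 with 2 times subtracted, 2820 among low-background genes alone and 4943 with subtraction and block. In addback against WT 1 subunit was called, and 0 with TMM over all genes. All-gene calls were 2036, and 566 with TMM over all genes, 3357 with the DESeq2 Wald test and 1218 to 1942 with 1 library left out (1218 without addback library 2).

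The replicate block called INTS4 and INTS9 in addition in KO against WT (-0.57 and -0.30). It called 3 in addback against KO (INTS6 0.29, INTS9 0.28 and INTS2 -0.14), or 1 with background subtracted. Over all genes, same-numbered libraries did not deviate together between KO and either group. In addback against WT, where same-numbered libraries deviated together, the block called 2 (INTS1 -0.42 and INTS2 -0.17), also 2 with background subtracted.

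Signs of log2 folds turned as follows, and the cause was not tested unless the setting names it. In KO against WT, TMM over all genes gave 0.10 for CPSF3L, 0.041 for INTS9, 0.32 for INTS2, 0.22 for INTS5, 0.29 for INTS7 and 0.059 for INTS8. Upper quartile factors gave 0.10 for INTS2, 0.0037 for INTS5 and 0.074 for INTS7. Background subtraction gave 0.062 for INTS2, 0.18 for INTS5 and 0.019 for INTS7, or with the block 0.061, 0.21 and 0.026. With 2 times subtracted the values were 0.37 for INTS9, 0.17 for INTS2, 0.63 for INTS5, 0.16 for INTS6, 0.10 for INTS7 and 0.031 for INTS8. Without addback and WT libraries 2 and 3, INTS2 had 0.082 and INTS7 0.16; with the 5% set INTS3 had -0.0042. With 1 library left out INTS2 ran from -0.061 to 0.052 and INTS7 from -0.14 to 0.11, both positive without WT library 3 alone.

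For addback against KO, TMM over all genes gave -0.19 for CPSF3L, -0.028 for INTS9, -0.25 for INTS1, -0.27 for INTS3, -0.23 for INTS5, -0.014 for INTS6 and -0.27 for INTS8. Upper quartile factors gave -0.022 for CPSF3L, -0.076 for INTS1, -0.090 for INTS3, -0.047 for INTS5 and -0.086 for INTS8. Subtraction gave -0.21 for INTS5 and -0.14 for INTS8, or with the block -0.23 and -0.14. With 2 times subtracted the values were -0.38 for INTS9, -0.34 for INTS4, -0.0090 for INTS1, -0.67 for INTS5, -0.32 for INTS6 and -0.40 for INTS8. Without addback and WT libraries 2 and 3, INTS9 had -0.0018 and INTS8 -0.037. In addback against WT, TMM over all genes gave INTS9 0.013, and leaving out those libraries gave INTS7 0.0061. With 1 library left out INTS9 ran from -0.15 to 0.11, INTS4 from -0.42 to 0.15, INTS5 from -0.10 to 0.066, INTS6 from -0.18 to 0.078 and INTS7 from -0.21 to 0.043.

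Subtraction moved these mean levels by more than 1 SD: INTS9 to 20.04 scaled CPM in WT, INTS4 to 27.8 and INTS8 to 45.4 in addback, INTS5 to 27.8 in addback and 28.5 in WT, and INTS6 to 29.3 in addback and 28.3 in KO. Shares moved to 3.77% for INTS9 in WT, 17.4% and 14.3% for INTS3 in addback and WT, 5.01% and 4.56% for INTS5 in addback and WT, and 1.87% for INTS6 and 7.55% for INTS8 in addback.

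With 3 libraries a group, small differences are limited by the spread between libraries. INTS9, with 508 counts in 1 library, and the other subunits of high background depend most on how background is estimated.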
